A study of Mus musculus with 12 samples.

Results

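The core circadian clock was followed in cardiac macrophages (Mφ) through 10 genes, chosen by name as Arntl, Per1, Per2, Per3, Cry1, Cry2, Nr1d1, Nr1d2, Dbp and Tef. All 10 were among the 24445 gene symbols counted, and all 10 passed the filter on low counts that left 14608 genes for testing. The cells came from the hearts of adult male C57BL6/J mice, enriched for CD45 and sorted for CD14 and CD64, with 1 RNA-seq library per mouse and 4 mice per group. Control mice (Ct) carried a saline pump, whereas isoproterenol, which stimulates β-adrenergic receptors, was infused at 30 mg/kg/day over 14 days in the ECH group (concentric hypertrophy) and over 28 days in the HF group (heart failure). How long each Ct pump ran is not stated per mouse. The sources used here give neither the hour at which each mouse was killed nor the light cycle, so a difference in clock phase and a difference in treatment cannot be told apart for any of these genes. The sorted cells were measured in bulk, where fewer cells of a type and less RNA per cell cannot be told apart either.

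The clock is a feedback loop of transcription. BMAL1, the product of Arntl, pairs with CLOCK and binds E-boxes, short DNA motifs in the promoters of its targets, which include the Per and Cry genes, Nr1d1, Nr1d2, Dbp and Tef. PER and CRY proteins return to the nucleus and repress BMAL1:CLOCK, while the nuclear receptors REV-ERBα (Nr1d1) and REV-ERBβ (Nr1d2) repress Arntl itself, so that in tissues with a running clock Arntl peaks at the opposite time of day to Nr1d1 and Dbp. DBP and TEF are PAR bZIP factors that pass the rhythm on through D-boxes. Per1 is also a direct target of the glucocorticoid receptor, and myeloid cells use the clock to time the traffic of monocytes and the production of cytokines.

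The libraries held between 88466559 and 111180291 counts, and levels are given as CPM, the share of a library's counts that falls on a gene, after TMM scaling of library size. The sorting marker Cd14 was between 1713 and 2993 CPM over all 12 libraries, and none of the 8 Mφ markers examined was at 0 throughout a group. ECH mice 3 and 4 stood apart in other Mφ markers, with Cx3cr1 at 50.2 and 23.9 CPM and Adgre1 at 755 and 579 CPM, below the other 10 libraries, and Mertk at 496 and 414 CPM, above them. Their part in the clock values of these mice was not tested. The 5 B cell markers summed to between 96.6 and 446 CPM for Ct, 34.3 and 79.8 CPM for ECH and 50.1 and 74.6 CPM in HF. In the same order of groups, neutrophil markers summed to between 409 and 1688, 176 and 486, and 158 and 1356 CPM, and T and NK cell markers to between 12.7 and 58.6, 2.71 and 23.2, and 7.20 and 17.3 CPM. Cardiomyocyte markers summed to between 85.0 and 249.2, 80.6 and 166, and 63.4 and 104 CPM, and 3 of 8 were lower in HF than in Ct at an unadjusted p under 0.05. The sums were between 28.6 and 190, 80.6 and 420, and 82.4 and 242 CPM for fibroblast markers and between 37.7 and 71.1, 38.9 and 108, and 25.8 and 45.8 CPM for endothelial markers. In 2 libraries many genes were missing, since Ct mouse 2 held 127 and HF mouse 1 held 188 genes at 0 that had at least 100 counts in every other mouse of the group, against at most 7 in the other libraries. The library numbers in the labels run from 1 to 6 in each of 2 series, which put ECH mice 1 and 2 in a set with Ct and ECH mice 3 and 4 in a set with HF. The labels do not call these sets batches. Ct and HF lie wholly in different sets, so set and group cannot be told apart between Ct and HF.

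Per length of the longest annotated transcript, Arntl was the most abundant of the 10 genes, at a median of 12.9 CPM per kb over the 12 libraries, and it exceeded the next gene in the order of medians, Per1 (6.83 CPM per kb), in 10 of them. Tef (6.05 CPM per kb), Nr1d2 (5.93 CPM per kb) and Cry1 (5.77 CPM per kb) followed. The neighbours from Per1 to Cry1 were not separated, since each exceeded the next in only 6 or 7 of the 12 libraries. Nr1d1 (2.93 CPM per kb), Dbp (2.34 CPM per kb), Cry2 (2.01 CPM per kb), Per2 (1.69 CPM per kb) and Per3 (0.80 CPM per kb) were lower. Dbp exceeded Cry2 in only 4 of the 12 libraries and Cry2 exceeded Per2 in 8, so their order was not settled either. Arntl was also the steadiest, with a 2.54-fold range between the lowest and the highest library and a coefficient of variation of 28.0%. Cry2 spanned a 32.3-fold range and Per2 had the largest coefficient of variation, 89.5%, with no count at all in HF mouse 1.

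**Figure D1:**
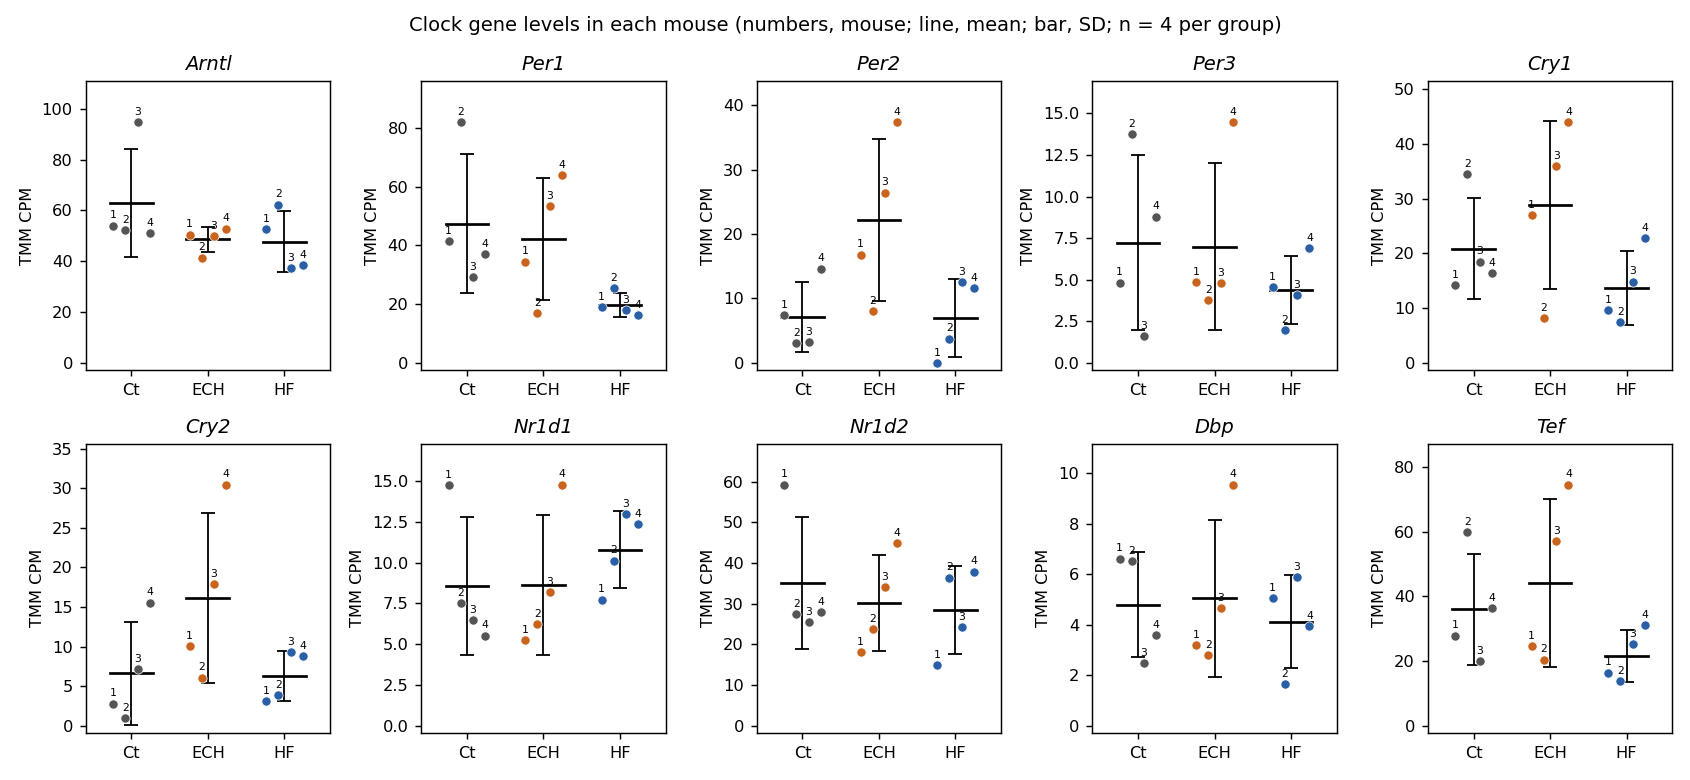
Level of each of the 10 clock genes in TMM CPM (y axis, linear) in each mouse of the Ct, ECH and HF groups (x axis), with points numbered by mouse, lines for the mean and bars for the SD (n = 4). Only Per1 shows groups that do not overlap, with the HF mice at 16.3 to 25.6 CPM and the Ct mice at 29.2 to 82.0 CPM.

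None of the 10 genes passed the call rule, an FDR under 0.05 with at least a 2-fold change in edgeR's quasi-likelihood test, between any of the groups. That rule called 0.356% of all genes tested between ECH and Ct, 0.377% between HF and Ct and 0% between HF and ECH. At an unadjusted p under 0.05, none of the clock genes differed between ECH and Ct (11.9% of all genes did). Per1 was lower in HF than in Ct (8.72% of all genes were lower, and 16.1% differed in either direction), and Per1, Cry1 and Tef were lower in HF than in ECH (5.17% of all genes were lower, and 7.98% differed in either direction). Groups of mice that did not overlap were found for none of the 10 between ECH and Ct (7.97% of all genes), for 1 between HF and Ct (9.04%) and for none between HF and ECH (6.92%). The median log2 fold change of the 10 genes was 0.041 for ECH against Ct, -0.35 for HF against Ct and -0.85 for HF against ECH, beside 0.010, -0.015 and -0.018 over all genes tested. Fold changes above 0 were found for 6 of the 10 between ECH and Ct (51.1% of all genes), for 1 between HF and Ct (48.8%) and for 1 between HF and ECH (48%). These comparisons share libraries and are not separate evidence of a direction. With the library set as a term in the fit, values for HF against Ct moved to -2.28 for Tef, -1.88 for Per3, -1.79 for Cry1, -1.66 for Cry2, -1.46 for Dbp, -1.39 for Per2 and -1.22 for Nr1d2, none of them called. That estimate rests on the ECH libraries, the only group in both sets.

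**Figure D2:**
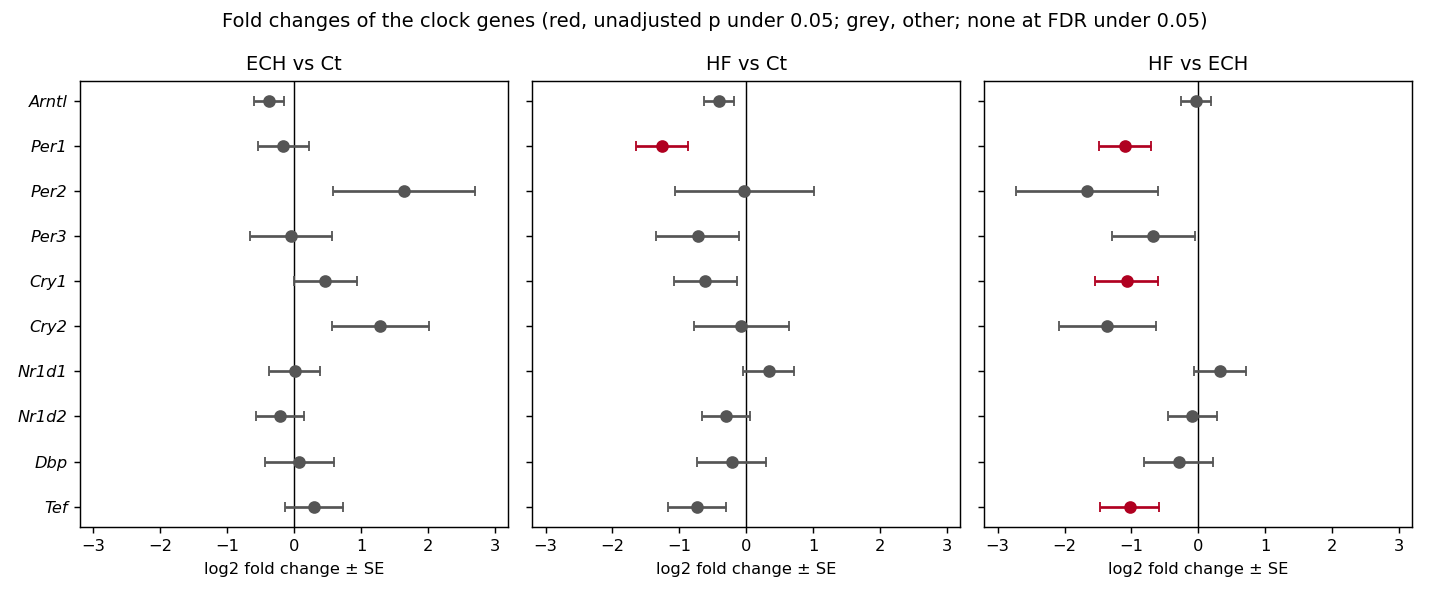
Log2 fold change of each clock gene with its SE (x axis) for ECH against Ct, HF against Ct and HF against ECH, from edgeR's quasi-likelihood fit to all 12 libraries, with red points for an unadjusted p under 0.05. Per1 is red against both Ct (-1.26) and ECH (-1.10), Cry1 (-1.07) and Tef (-1.03) only against ECH, and Per2 and Cry2 carry the longest error bars.

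Arntl (chr7:113207465-113314126 of mm10, + strand), the positive arm of the loop, was at 54.0, 52.2, 94.7 and 51.2 CPM across Ct mice 1 to 4. Across ECH mice Arntl was 50.5, 41.4, 49.98 and 52.8 CPM in the same order, and across HF mice it was 52.5, 62.3, 37.3 and 38.5 CPM. Ct mouse 3 stood far above every other mouse, and the groups overlapped. The log2 fold change was -0.37 ± 0.22 (SE) for ECH against Ct, -0.40 ± 0.22 for HF against Ct and -0.03 ± 0.22 for HF against ECH, with edgeR FDR values of 0.553, 0.403 and 0.998. Its partner Clock had a mean of 57.3 ± 4.06 CPM (SD, n = 4) for Ct, 54.3 ± 13.7 CPM for ECH and 47.3 ± 11.3 CPM for HF and log2 fold changes between -0.28 and -0.08 (FDR 0.528 to 0.917). Npas2, which can stand in for CLOCK, reached at most 1.30 CPM in any library and had no count in 5 of them.

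Among the Period genes, which encode the repressors that pair with CRY, Per1 (chr11:69095217-69109960, + strand) was at 41.4, 82.0, 29.2 and 36.9 CPM across Ct mice 1 to 4. Per1 in the ECH mice came to 34.5, 17, 53.5 and 64.0 CPM in that order, and in the HF mice to 19.1, 25.6, 18.1 and 16.3 CPM. Every HF mouse was below every Ct mouse, while ECH mouse 2 lay within the HF range and the other ECH mice above it. The mean was 47.4 ± 23.6 CPM (SD, n = 4) for Ct, 42.3 ± 20.8 CPM for ECH and 19.8 ± 4.07 CPM for HF. HF differed from Ct by a log2 fold change of -1.26 ± 0.39 (unadjusted p = 0.0060, FDR = 0.161 with edgeR), and by a two-sided exact permutation test with p = 0.0286, the smallest that 4 against 4 mice allow, among 30 such tests made. HF mice all below the Ct mice were found for 4.45% of all genes tested, and for 1 of the 10 clock genes. Without Ct mouse 2, the highest library for Per1, the log2 fold change was -0.86 (FDR = 0.266).

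Against ECH the Per1 difference in HF was -1.10 ± 0.38 (unadjusted p = 0.0135, FDR = 0.561 with edgeR). Within the set that holds HF and ECH mice 3 and 4, the difference was -1.57 and passed the call rule (FDR = 0.00875), where 2.49% of all genes passed it, and with the set as a covariate in the fit of all libraries it was -1.57 (FDR = 0.0422), where 1.86% of all genes passed. HF lies wholly in 1 set, so both estimates compare HF with ECH mice 3 and 4 and are not separate evidence. These mice share the first part of their mouse code and are among the 3 with the highest Per1. DESeq2 and edgeR's likelihood ratio test called Per1 between HF and Ct, at FDR 0.0267 and 0.0438, beside 2.30% and 1.87% of all genes. Between ECH and Ct, Per1 stood at -0.17 ± 0.38 (FDR = 0.906). The same covariate took it to -0.88 for ECH against Ct (FDR = 0.630) and to -2.45 for HF against Ct (FDR = 0.0515), neither of them called. Without Ct mouse 2 or without ECH mouse 2 the value for ECH against Ct was above 0 (0.24 and 0.098).

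Per2 (chr1:91415982-91459324, - strand) was at 7.47, 3.09, 3.25 and 14.6 CPM across Ct mice 1 to 4. In that order Per2 reached 16.8, 8.07, 26.4 and 37.4 CPM in the ECH group and 0, 3.78, 12.5 and 11.6 CPM in the HF group. The 3 highest values were all in ECH, and Ct mouse 4 was above ECH mouse 2, so the groups overlapped. The count of 0 in HF mouse 1 allows up to 0.0287 CPM (3 counts, counting error only), and Per2 is among the genes at 0 in that library that had at least 100 counts in every other HF mouse. The mean of ECH was 22.2 ± 12.6 CPM (SD, n = 4), against 7.11 ± 5.41 CPM in Ct and 6.98 ± 6.08 CPM in HF, and the log2 fold changes were 1.64 ± 1.06 for ECH against Ct (FDR = 0.592) and -1.67 ± 1.06 for HF against ECH (FDR = 0.744). For ECH against Ct it was 2.27 without Ct mouse 4 and 0.81 with the library set in the fit (FDR = 0.434 and 0.913). Over the alternatives, the Per2 value for HF against ECH ran from -3.86 to -1.25. For HF against Ct it was -0.03 in the main fit and ran from -2.14 to 0.60. Per3 (chr4:151003652-151044665, - strand), the third Period gene, was at 4.83, 13.7, 1.60 and 8.79 CPM across Ct mice 1 to 4. Across ECH mice Per3 was 4.88, 3.80, 4.801 and 14.5 CPM in the same order, and across HF mice it was 4.55, 1.98, 4.07 and 6.92 CPM. ECH mouse 4 and Ct mouse 2 were the highest, all groups overlapped, and the FDR was at least 0.616 in each comparison. Per3 lies within the annotated span of Camta1 on the same strand, which shares 41014 bases with it, so a strand setting could not separate reads of these genes.

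The cryptochromes, partners of PER in repression, showed the same order of mice in part. Cry1 (chr10:85131700-85185064, - strand) was at 14.2, 34.6, 18.5 and 16.4 CPM across Ct mice 1 to 4. Cry1 in the ECH mice came to 27.1, 8.22, 36.01 and 44.0 CPM in that order, and in the HF mice to 9.67, 7.46, 14.9 and 22.8 CPM. ECH mice 3 and 4 and Ct mouse 2 were the highest, and ECH mouse 2 fell among the HF mice. HF was below ECH by -1.07 ± 0.47 on the log2 scale (unadjusted p = 0.0413, FDR = 0.605 with edgeR), a difference not distinguished from the spread between mice after adjustment. Cry2 (chr2:92403646-92434043, - strand) was at 2.80, 0.94, 7.16 and 15.6 CPM across Ct mice 1 to 4. In that order Cry2 reached 10.1, 6.09, 17.9 and 30.5 CPM in the ECH group and 3.12, 3.90, 9.28 and 8.80 CPM in the HF group. The highest mice were ECH 4 and ECH 3, followed by Ct 4, and the log2 fold change was 1.29 ± 0.72 for ECH against Ct (FDR = 0.516) and -1.36 ± 0.72 for HF against ECH (FDR = 0.671). The value for ECH against Ct was 2.15 without Ct mouse 4, 0.78 without ECH mouse 4 and 0.29 with the library set in the fit (FDR 0.253 to 0.961). An antisense transcript, D930015M05Rik, overlaps Cry2 over 23417 bases.

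Of the REV-ERB genes, which repress Arntl, Nr1d1 (chr11:98767932-98775333, - strand) was at 14.8, 7.502, 6.45 and 5.52 CPM across Ct mice 1 to 4. Across ECH mice Nr1d1 was 5.24, 6.23, 8.20 and 14.8 CPM in the same order, and across HF mice it was 7.73, 10.1, 12.98 and 12.3 CPM. It was the only clock gene with a fold change above 0 in HF against both Ct (0.33 ± 0.38, FDR = 0.724) and ECH (0.33 ± 0.38, FDR = 0.915), neither beyond the spread between mice, and the sign turned once the library set entered the fit (-0.67 and -0.09). Reads of its neighbour Thra, which overlaps 1075 bases of Nr1d1 on the opposite strand, cannot be told apart without a strand setting. Nr1d2 (chr14:18204054-18239127, - strand) was at 59.3, 27.4, 25.4 and 27.9 CPM across Ct mice 1 to 4. Nr1d2 in the ECH mice came to 18.1, 23.8, 34.03 and 45 CPM in that order, and in the HF mice to 14.9, 36.4, 24.3 and 37.9 CPM. Ct mouse 1 was the highest and HF mouse 1 the lowest, and the log2 fold changes lay between -0.30 and -0.09 (FDR 0.741 to 0.988).

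Of the PAR bZIP output factors, Tef (chr15:81802421-81826863, + strand) was at 27.9, 59.8, 20 and 36.4 CPM across Ct mice 1 to 4. In that order Tef reached 24.7, 20.5, 57.1 and 74.6 CPM in the ECH group and 16.4, 13.8, 25.4 and 31.2 CPM in the HF group. The 3 highest mice were those that were highest for Per1 and Cry1. HF was lower than ECH by -1.03 ± 0.44 (unadjusted p = 0.0352, FDR = 0.595 with edgeR), and by -1.60 within the set of HF and ECH mice 3 and 4 (FDR = 0.0321), where Tef and Per1 were the 2 of the 10 clock genes that passed the call rule (2.49% of all genes passed it). Dbp (chr7:45705088-45710203, + strand) was low, at 6.62, 6.51, 2.47 and 3.60 CPM across Ct mice 1 to 4. Across ECH mice Dbp was 3.21, 2.79, 4.66 and 9.55 CPM in the same order, and across HF mice it was 5.04, 1.64, 5.88 and 3.94 CPM. Its group means, 4.8 ± 2.09, 5.05 ± 3.10 and 4.13 ± 1.84 CPM (SD, n = 4) in Ct, ECH and HF, differed by less than their SD (FDR 0.882 to 0.976). Dbp shares 737 bases with Sphk2 on the opposite strand, to which the same limit on strand applies. Hlf, the third PAR bZIP gene, did not exceed 0.99 CPM in any library.

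The promoters of Per1, Cry1 and Tef are shown because these were the genes with an unadjusted p under 0.05. The 250 bases upstream of each RefSeq transcription start are printed 5′ to 3′ on the strand of the gene, from the RefSeq annotation of GRCm38.p6 (the mm10 build). Capitals mark the E-box CACGTG, or the E′-box CACGTT, which is read as AACGTG on the other strand.
Per1 promoter 1 (chr11:69098699-69098948, + strand): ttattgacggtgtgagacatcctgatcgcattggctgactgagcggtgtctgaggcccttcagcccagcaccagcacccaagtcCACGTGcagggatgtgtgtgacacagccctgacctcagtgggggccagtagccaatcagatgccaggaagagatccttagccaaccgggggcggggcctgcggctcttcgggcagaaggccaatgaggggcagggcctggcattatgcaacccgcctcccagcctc
Per1 promoter 2 (chr11:69099902-69100151, + strand): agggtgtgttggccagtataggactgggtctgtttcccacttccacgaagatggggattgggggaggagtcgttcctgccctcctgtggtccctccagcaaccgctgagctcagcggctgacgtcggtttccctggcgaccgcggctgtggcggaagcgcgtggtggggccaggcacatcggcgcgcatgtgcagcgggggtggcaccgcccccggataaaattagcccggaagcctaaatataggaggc
Cry1 promoter 1 (chr10:85185055-85185304, - strand): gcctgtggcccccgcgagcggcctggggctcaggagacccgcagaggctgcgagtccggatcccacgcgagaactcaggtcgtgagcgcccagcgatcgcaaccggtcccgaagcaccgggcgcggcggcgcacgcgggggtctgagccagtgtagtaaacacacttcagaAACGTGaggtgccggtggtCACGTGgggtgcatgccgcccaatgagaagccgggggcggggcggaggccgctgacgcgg
Tef promoter 1 (chr15:81802423-81802672, + strand): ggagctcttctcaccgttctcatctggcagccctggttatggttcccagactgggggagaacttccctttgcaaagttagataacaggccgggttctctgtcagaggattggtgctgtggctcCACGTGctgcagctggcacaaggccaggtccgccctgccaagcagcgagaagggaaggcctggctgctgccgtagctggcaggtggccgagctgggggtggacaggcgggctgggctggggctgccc
Tef promoter 2 (chr15:81811164-81811413, + strand): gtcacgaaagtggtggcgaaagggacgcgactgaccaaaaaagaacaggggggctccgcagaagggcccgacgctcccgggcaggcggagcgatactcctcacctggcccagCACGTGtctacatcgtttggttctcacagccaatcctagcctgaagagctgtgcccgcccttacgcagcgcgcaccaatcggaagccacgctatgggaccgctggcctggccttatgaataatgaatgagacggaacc
Per1 promoter 1 carried its E-box 166 bases before the start, Cry1 had an E-box at 60 and an E′-box at 79 bases before the start, and Tef had an E-box at 127 bases before one start and at 138 bases before the other. No match was found in the window of Per1 promoter 2. Among the 9 clock genes in the promoter table, searched on both strands from 250 bases before to 50 after each start, the E-box was found in 4 of 12 promoters, all of these 3 genes, and in 7.15% of the 32851 promoters in the table. The E′-box was found for Cry1, Cry2 and Nr1d1 and in 4.68% of all promoters. Per3 held the D-box TTATGTAA at 205 and again at 158 bases before its start, where 1.06% of all promoters held TTATGTAA or TTACGTAA. Arntl held TAGGTCA, one of the searched forms of the ROR element (TAGGTCA or TGGGTCA, 6.45% of all promoters) to which REV-ERB proteins bind, 31 bases after its second start. None of the windows held the CRE TGACGTCA (1.79% of all promoters) or the palindromic glucocorticoid response element (0.00913%). A match describes the letters of the window and not a site in use.

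Mice of the same group differed widely. ECH mouse 4 had the highest level of 7 of the 10 clock genes, was among the 2 highest for 9 of them and stood above the mean of the 12 mice for all 10, with a median deviation of 1.22 on the log2 scale, against 0.041 for all genes tested in that library. ECH mouse 3 followed with a median deviation of 0.49, while ECH mice 1 and 2 were at -0.05 and -0.45. ECH mouse 4 exceeded ECH mouse 2 in all 10 genes, and the median absolute difference between these mice was 1.88 on the log2 scale over the clock genes and 0.40 over all genes tested. ECH mice 3 and 4, which share the first part of their mouse code in the labels, differed by a median of 0.45 over the clock genes. The other pairs that share such a code differed by 1.10 (Ct 1 and 2), 0.69 (Ct 3 and 4) and 0.40 (HF 1 and 2). Pairs of the same group with different codes ranged from 0.22 (HF 3 and 4) to 1.88. HF mice 1 and 2 were the lowest, with median deviations of -0.79 and -0.80, beside HF mice 3 and 4 at -0.24 and 0.34.

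**Figure D3:**
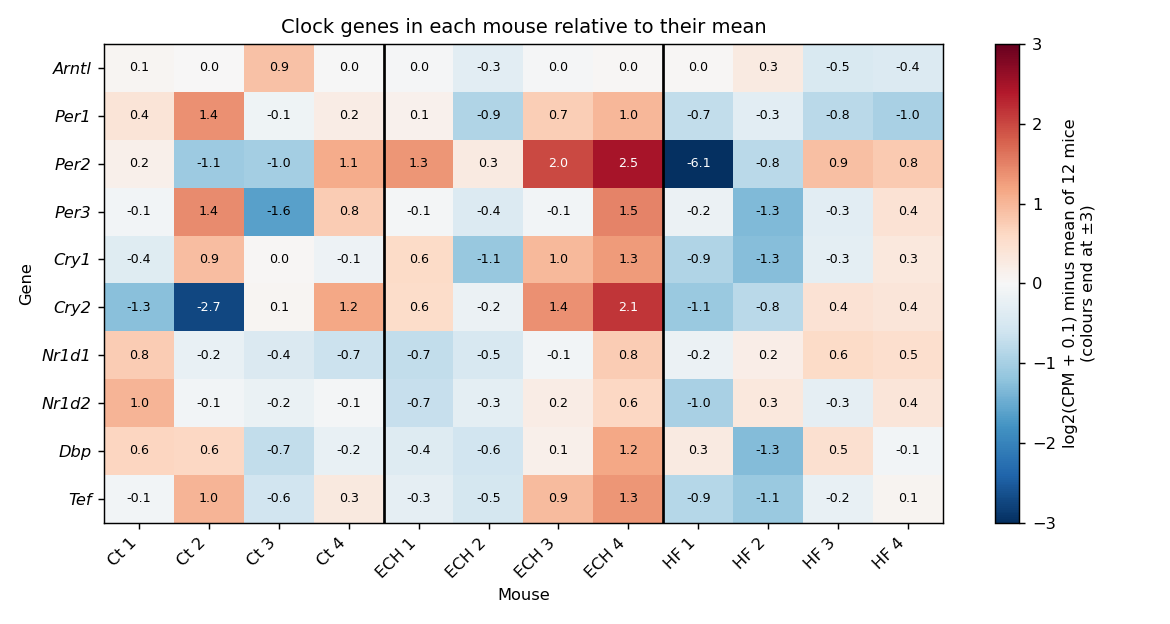
Deviation of each clock gene (rows) in each mouse (columns) from its mean over the 12 mice, in log2(CPM + 0.1), with red for higher and blue for lower and black lines between groups. The column of ECH mouse 4 is above 0 for all 10 genes, with Arntl close to 0, and the blue cell of HF mouse 1 for Per2 is the count of 0.

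The phase relation of the positive and negative arms was examined across mice, with Arntl set against each of its targets. Over the 12 mice, Pearson's r of log2(CPM + 0.1) between Arntl and the 9 other genes ran from -0.45 for Per3 to 0.30 for Per1, with a median of -0.19, and 7 of the 9 were below 0. No relation passed after Benjamini-Hochberg adjustment over the 9 (smallest adjusted p = 0.790, permutation test with 100000 resamples). With Nr1d1, r was -0.26 (permutation p = 0.439, adjusted p = 0.790) and Spearman's rho 0.084 (permutation p = 0.800), and without the 2 mice farthest from the median of Arntl, Ct 3 and HF 3, r was 0.10. With Dbp, r was -0.34 (permutation p = 0.281, adjusted p = 0.790) and rho -0.084 (permutation p = 0.798), and r without those mice was -0.01. With Per3, r was -0.45 (permutation p = 0.146, adjusted p = 0.790) and rho -0.16 (permutation p = 0.619), and r was -0.18 without those mice, -0.62 after subtracting the group means, -0.61 and -0.25 within the sets (exact permutation p = 0.244 and 0.636) and -0.52 without Ct mouse 2 and HF mouse 1. With Per2, r was -0.25 (permutation p = 0.347, adjusted p = 0.790) and rho -0.41 (permutation p = 0.184), and r was -0.20 without Ct mouse 3 and HF mouse 3, -0.54 and -0.27 within the sets (exact permutation p = 0.308 and 0.657) and -0.51 without Ct mouse 2 and HF mouse 1. Within the set of Ct and ECH mice 1 and 2, r with Nr1d1 was 0.024 and with Dbp -0.28, and within the set of HF and ECH mice 3 and 4 these were -0.40 and -0.37 (exact permutation p between 0.419 and 0.950). After subtracting the group means, r was -0.46 with Dbp and -0.41 with Tef, and the median over the 9 genes was -0.18. An inverse relation of Arntl to its targets was not detectable in these 12 mice. The highest Arntl library, Ct mouse 3, was the lowest for 1 target, Per3 (1.60 CPM), but not for Nr1d1. HF mouse 2, next for Arntl (62.3 CPM), was the lowest for Cry1, Tef and Dbp. HF mouse 3, the lowest for Arntl, was the highest for none of the targets.

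The other 9 genes were then set against each other, a comparison made after the values had been seen. Of their 36 pairs, 35 had r above 0, with a median of 0.36, beside a median r of 0.0065 and 50.6% above 0 over all pairs of genes tested, and 4 had an adjusted p under 0.05 over the 36 pairs. The sign did not hold in both library sets. In the set of HF and ECH mice 3 and 4, 1 of the 36 pairs was below 0 and the median r was 0.64, whereas 15 pairs were below 0 and the median was 0.12 in the set of Ct and ECH mice 1 and 2. The lowest pairs there were Cry2 with Dbp (-0.76), Per1 (-0.65), Tef (-0.59) and Nr1d1 (-0.57). That set holds Ct mouse 2, the lowest mouse for Cry2 (0.94 CPM). Over all 12 mice these pairs had r of 0.068, -0.018, 0.31 and 0.059 in the same order. Without Ct mouse 2 and HF mouse 1, r was 0.46, 0.47, 0.82 and -0.089. Without the 2 farthest mice of each pair, 10 pairs were below 0 and the median was 0.25. The closest pair was Cry1 and Tef, with r = 0.88 and rho = 0.80 (permutation p = 0.00030 and 0.0030, adjusted p = 0.0108 and 0.0359). Their r was 0.79 without the 2 mice farthest from the median of Cry1 (ECH 4 and HF 2), 0.84 after subtracting the group means, 0.63 within the set of Ct and ECH mice 1 and 2 (exact permutation p = 0.189) and 0.99 within the set of HF and ECH mice 3 and 4 (exact permutation p = 0.0028). Of all genes tested, 0.0205% had an r with Cry1 at least as high as that of Tef.

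Per3 and Tef had r = 0.81 and rho = 0.84 (permutation p = 0.0017 and 0.0012, adjusted p = 0.0308 and 0.0218), and r = 0.77 without the 2 farthest mice, 0.91 and 0.81 within the sets (exact permutation p = 0.0083 and 0.0444). Per1 and Tef followed with r = 0.77 and rho = 0.64 (permutation p = 0.0040 and 0.0274, adjusted p = 0.0486 and 0.135), which dropped to 0.56 without ECH mouse 4 and Ct mouse 2 and was 0.89 and 0.77 within the sets (exact permutation p = 0.0111 and 0.0986). Per3 and Dbp had r = 0.75 and rho = 0.64 (permutation p = 0.0055 and 0.0305, adjusted p = 0.0492 and 0.135), with 0.60 without the 2 farthest mice and 0.68 and 0.85 within the sets (exact permutation p = 0.133 and 0.0667). By rank, Per2 and Cry2 were the closest pair, with rho = 0.91 (permutation p = 0.00013, adjusted p = 0.00468) and r = 0.64 (permutation p = 0.0301, adjusted p = 0.121), and r was 0.78 without ECH mouse 4 and HF mouse 1, the library with no Per2 count. Within the sets their r was 0.70 and 0.84 (exact permutation p = 0.126 and 0.0069). The REV-ERB genes Nr1d1 and Nr1d2 had r = 0.70 and rho = 0.67 (permutation p = 0.0117 and 0.0203, adjusted p = 0.0604 and 0.128), 0.46 without Ct mouse 1 and ECH mouse 4, and 0.94 and 0.58 within the sets (exact permutation p = 0.0236 and 0.225).

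**Figure D4:**
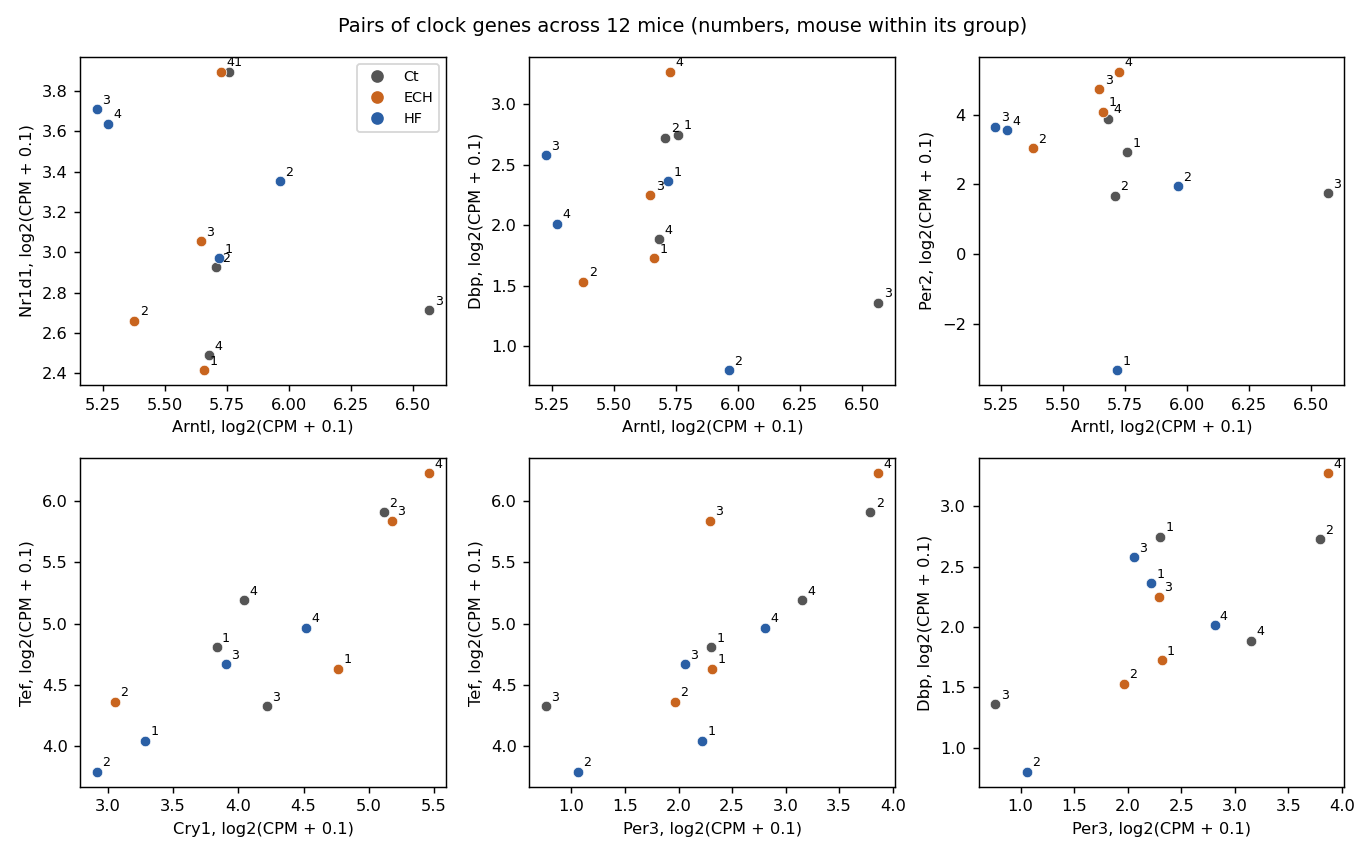
Pairs of clock genes in log2(CPM + 0.1), with 1 point per mouse coloured by group and numbered by mouse. The upper panels set Nr1d1, Dbp and Per2 against Arntl, where r was -0.26, -0.34 and -0.25, and the lower panels show Tef against Cry1 (r = 0.88), Tef against Per3 (r = 0.81) and Dbp against Per3 (r = 0.75).

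Over the 11932 genes with a mean of at least 1 CPM that are not among the 10, those closest to Arntl over the 12 mice were Trip11 (r = 0.85), Nudt16 (0.84), Gypc (0.84), Nfic (0.82) and Pstpip2 (0.81), and those most opposed to it included Haus8 (-0.93), Cdc6 (-0.90), Melk (-0.84) and F11r (-0.82). For Dbp the closest were Ccdc28a (r = 0.94), Zfp764 (0.87), Zfp865 (0.87), Sp3os (0.86) and Ubac1 (0.86), and the most opposed were Zdhhc18 (-0.88), Mut (-0.84), Tmem86b (-0.82), Tbxas1 (-0.82) and Cpsf2 (-0.81). None of these is among the clock genes listed here, and the values describe the likeness of profiles over 12 libraries that share groups and sets.

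Among other genes of the loop, Bhlhe40, which encodes the repressor DEC1 that competes for E-boxes, was the only one of 21 tested that passed the call rule. It was at 29.8, 16.7, 41.4 and 33.0 CPM across Ct mice 1 to 4. Bhlhe40 in the ECH mice came to 68.5, 105.9, 57.0 and 38.9 CPM in that order, and in the HF mice to 76.0, 76.9, 88.0 and 110.0 CPM. Every HF mouse was above every Ct mouse, and ECH mouse 4, the highest for 7 of the 10 clock genes, was the lowest ECH mouse and lay below Ct mouse 3. Bhlhe40 was higher in HF than in Ct by 1.54 ± 0.31 (log2, FDR = 0.0455 with edgeR) and its value for ECH against Ct, 1.16 ± 0.30, did not pass (FDR = 0.128). The call in HF was lost when any 1 of 9 libraries was left out (Ct 1, 2 or 4, ECH 1 or 3, or any HF mouse), and without both Ct mouse 2 and HF mouse 1 the log2 fold change was 1.39 (FDR = 0.0930). Over the alternatives the Bhlhe40 value for HF against Ct ran from 1.34 to 2.40, with an FDR of up to 0.141. Its paralog Bhlhe41 (DEC2) was at 2.43 to 4.14 CPM for Ct, 3.95 to 8.27 CPM for ECH and 5.80 to 7.95 CPM in HF, with a log2 fold change of 1.04 ± 0.33 for HF against Ct (FDR = 0.169). With the library set in the fit this became 0.32 (FDR = 0.852) for Bhlhe41 and 2.40 (FDR = 0.0251) for Bhlhe40.

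Of the 10 loop partners tested, 3 had an unadjusted p under 0.05 for ECH against Ct, all higher (6.03% of all genes were), and 2 for HF against Ct, both higher (7.35% of all genes were). Nfil3, the repressor of D-box genes that opposes DBP and TEF, was at 61.0, 21.6, 61.5 and 35.6 CPM in Ct mice 1 to 4 and at 82.7, 67.3, 109.2 and 82.3 CPM in ECH mice 1 to 4. All ECH mice were above all Ct mice (log2 fold change 0.93 ± 0.28, unadjusted p = 0.0056, FDR = 0.196 with edgeR), and the HF mice lay between 58.0 and 74.8 CPM. Ciart, a repressor of BMAL1:CLOCK, was at 3.47 to 26.7 CPM for Ct, 8.68 to 25.4 CPM for ECH and 4.17 to 9.93 CPM in HF, with -1.25 ± 0.50 for HF against ECH (FDR = 0.589) and -1.58 within the set of HF and ECH mice 3 and 4 (FDR = 0.0426). None of the 7 kinases and ubiquitin ligases that act on PER and CRY was called.

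Of the 4 clock outputs tested, none was called. Wee1, the kinase that holds cells before mitosis and a target of BMAL1:CLOCK, was at 5.26, 10.9, 3.59 and 3.35 CPM across Ct mice 1 to 4. In that order Wee1 reached 18.1, 14.2, 31.9 and 42.5 CPM in the ECH group and 24.8, 12.7, 13.04 and 13.5 CPM in the HF group. All ECH and HF mice were above all Ct mice, with a log2 fold change of 2.21 ± 0.45 for ECH (FDR = 0.0510 with edgeR) and 1.47 ± 0.44 for HF (FDR = 0.149). The call turned on the settings, since without Ct mouse 2 the ECH log2 fold change was 2.71 and passed (FDR = 0.0205), while with the library set in the fit it was 1.48 for ECH (FDR = 0.368) and 0.27 for HF (FDR = 0.907). Usp2, a deubiquitinase under clock control, was at 4.59 to 8.15 CPM in HF, below all ECH mice (8.92 to 13.6 CPM), with -0.90 ± 0.32 (unadjusted p = 0.0136, FDR = 0.561 with edgeR).

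**Figure D5:**
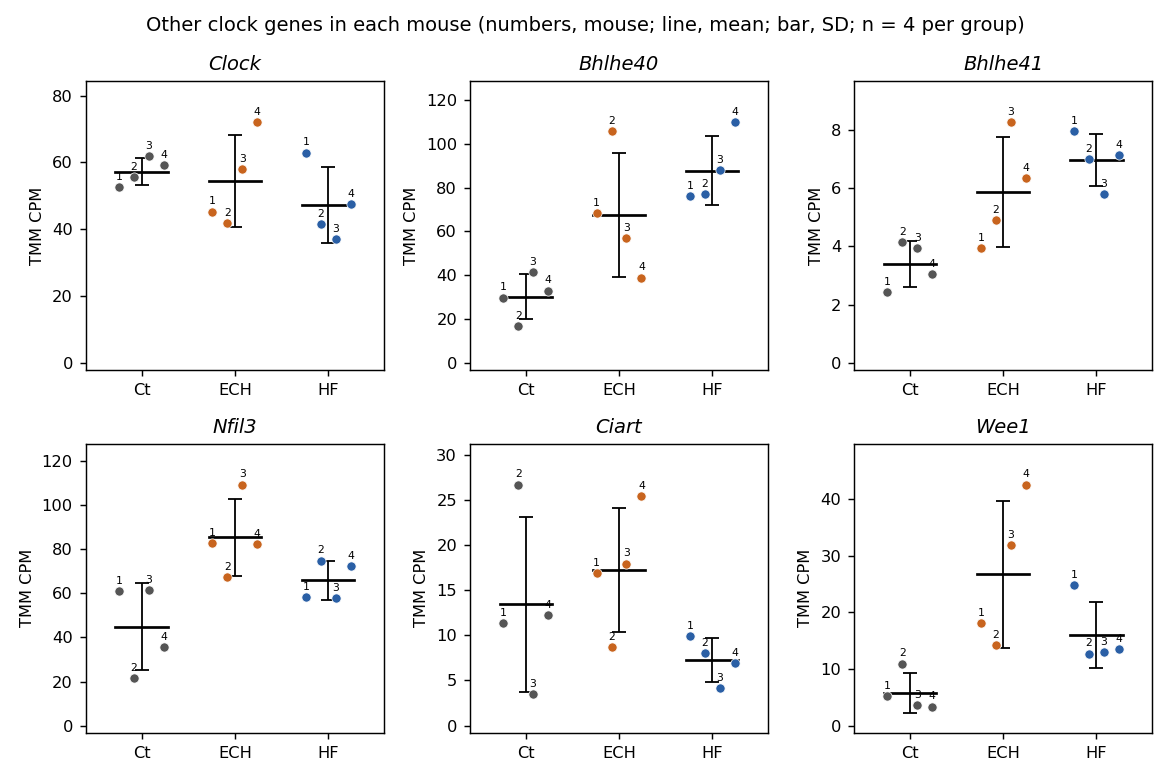
Levels of Clock, Bhlhe40, Bhlhe41, Nfil3, Ciart and Wee1 in TMM CPM (y axis, linear) in each mouse by group (x axis), with points numbered by mouse, lines for the mean and bars for the SD (n = 4). Bhlhe40, Bhlhe41 and Wee1 are above every Ct mouse in all HF mice, and Nfil3 and Wee1 in all ECH mice.

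The 3 mice with the highest Per1, namely Ct 2, ECH 3 and ECH 4, were also the 3 highest for Cry1 and Tef. The arrangement was looked for after the values had been seen, and 2.13% of all genes tested (311 of 14608) had these same mice as their 3 highest. Outside the 10 genes it held for Ciart and for 4 of 8 glucocorticoid-induced genes, Tsc22d3, Zbtb16, Klf9 and Ddit4, and for none of 10 immediate early and dissociation genes. Tsc22d3 (GILZ), a standard target of the glucocorticoid receptor, was at 2007 CPM in Ct mouse 2 and at 1074 to 1234 CPM in the other Ct mice, at 2559 and 2477 CPM in mice 3 and 4 of the ECH group but 1705 and 740 CPM in its mice 1 and 2, and at 630 to 993 CPM in HF. Klf9 was at 185 CPM in Ct mouse 2 and 30.2 to 77.8 CPM in the other Ct mice, at 173 and 191 CPM in mice 3 and 4 of the ECH group but 105 and 44.8 CPM in its mice 1 and 2, and at 23.5 to 55.0 CPM in HF. Both genes were picked from the 4 with that arrangement, and the list's Sgk1, Dusp1, Errfi1 and Fkbp5 did not have it.

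Fkbp5, a co-chaperone of the glucocorticoid receptor and its target, reached 692 and 603 CPM in mice 3 and 4 of the ECH group, against 205 and 175 CPM in its mice 1 and 2, 50.5 to 195 CPM in Ct and 35.4 to 140 CPM in HF. Over the list, 5 of 8 genes were lower in HF than in ECH at an unadjusted p under 0.05 (5.17% of all genes were), all 8 fold changes were below 0 and the median was -1.49. Between HF and Ct, 4 of 8 were lower at that threshold (8.72% of all genes) and 1, Sgk1, was higher, with all HF mice above all Ct mice (log2 fold change 0.73, unadjusted p = 0.00035, FDR = 0.0562 with edgeR). None of the 8 passed the call rule, although Sgk1, a kinase induced by the receptor, was higher in ECH than in Ct with an FDR of 0.0202 at less than 2-fold (1.96-fold). Of the 10 immediate early and dissociation genes, several of which answer the same signals as Per1, none passed the call rule. At an unadjusted p under 0.05 against Ct, 7 were lower in ECH (5.89% of all genes) and 6 in HF (8.72% of all genes). All 10 fold changes were below 0, with medians of -0.83 and -0.78, and the AP-1 gene Fosb had the lowest value in both, -1.84. Nr4a1, an immediate early nuclear receptor gene, stood at -1.04 in ECH (FDR = 0.283) and -0.87 in HF (FDR = 0.281). Between HF and ECH none of these 10 reached an unadjusted p under 0.05 and their median was -0.02, where Per1 stood at -1.10. The part of the glucocorticoid-induced genes, the immediate early genes and the markers of the other cell types in the values of Per1 was not tested.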

How the data were processed

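RNA of sorted cardiac Mφ from 12 mice was measured by RNA-seq. Per the labels and the study's methods, the authors amplified cDNA with SMART-Seq v4, used Trimmomatic to trim reads, TopHat2 for alignment to mm10 and featureCounts for counting. The deposited values are raw counts per gene symbol, and the sources used here give no versions, annotation or strand setting. Libraries carry no molecular identifiers, so intervals and floors (3 counts) cover counting error only. Groups came from the labels. Each library is 1 mouse, so p-values measure the spread between mice.

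The tests used edgeR 4.0.16 in R 4.3.3 (filterByExpr by group, TMM, 1 mean per group over 12 libraries, quasi-likelihood test, Benjamini-Hochberg over 14608 genes, called at FDR under 0.05 and at least 2-fold). The biological coefficient of variation was 60.8%. Correlations used log2(CPM + 0.1), with permutation tests coded in Python 3.11.15 with numpy 2.4.6 and ranks from scipy 1.17.1. Gene spans and overlaps came from GENCODE, promoters from RefSeq. Genes of the other clock, glucocorticoid and immediate early lists were named when FDR was under 0.05, or when an unadjusted p under 0.05 came with a 2-fold change, with Clock, Npas2, Nfil3 and Bhlhe40 always named. Hlf, Usp2, Dusp1 and Errfi1 fall outside that rule, which does not cover cell type markers, and these genes and the markers Cd14, Cx3cr1, Adgre1 and Mertk were named after their values were seen. Some genes are not reported here. The 10 genes and all lists were chosen with earlier results of these data known. Alternatives were other scalings, tests (DESeq2 1.42.0, limma 3.58.1), filters, library sets, blocks and each library left out. The code was tested on simulated data.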

Additional observations from a re-analysis of the deposited data

Results flagged for a closer look

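Arntl in Ct mouse 3 (94.7 CPM) lay far from the other Ct mice (51.2 to 54.0 CPM) by Dixon's criterion for a single distant sample. Per3 in ECH mouse 4 (14.5 CPM) did so against the other ECH mice (3.80 to 4.88 CPM), and Nr1d2 in Ct mouse 1 (59.3 CPM) against the other Ct mice (25.4 to 27.9 CPM). These are 3 of 30 groups of 4 mice examined, and chance flags about 1 group in 20.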

How the results depend on the processing

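With 60.8% biological variation, 4 mice a group and an hour of killing that is not given limit what can be detected. The number of clock genes called stayed at 0 between ECH and Ct under every alternative run. Between HF and Ct it was 1 (Per1) under DESeq2 and under the likelihood ratio test, where 2.30% and 1.87% of all genes were called. Between HF and ECH it was 2 (Per1, Tef) when the set entered as a covariate or the fit stayed within sets (1.86% and 2.49% of all genes). Both of these settings compare HF with ECH mice 3 and 4 and are not separate evidence. Of the other clock genes, the main fit called 0 for ECH against Ct, beside 0.356% of all genes. The count became 2 (Bhlhe40, Wee1) in DESeq2 (1.7% of all genes) and the likelihood ratio test (1.49%), settings that called more genes of any kind. It was 1 (Wee1) with limma-voom (0.575%), with no filter (0.3%) and with genes over 1 CPM in 4 libraries (0.525%). It was also 1 (Wee1) without Ct mouse 2 and HF mouse 1 (0.342%), and 0 to 1 when each library was left out. For HF against Ct the main count was 1 (Bhlhe40), beside 0.377% of all genes. It became 3 with DESeq2 (2.30% of all genes), 2 with the likelihood ratio test (1.87%) and 0 with the replicate number as a block (0.123%). It was also 0 without Ct mouse 2 and HF mouse 1 (0.295%), and 0 to 1 when each library was left out. For HF against ECH the count was 1 (Ciart) within the sets (2.49% of all genes). The relations of Arntl kept 0 adjusted p under 0.05 in all settings run. Mice with the same replicate number did not deviate together (correlations from -0.070 to 0.069), so the block pairs mice by number only; it lowered all genes called between HF and Ct from 55 to 18. Several fold changes, none of them called, changed sign, and the cause was not tested. Without Ct mouse 2 and HF mouse 1 (chosen after seeing the data), the sign turned for ECH vs Ct in Per1 0.23, Per3 0.45, Nr1d1 -0.061, and HF vs Ct in Per2 0.13, and HF vs ECH in Nr1d2 0.12. With limma-voom, the sign turned for ECH vs Ct in Per3 0.19, Nr1d1 -0.26, Dbp -0.11, and HF vs Ct in Cry2 0.29, and HF vs ECH in Nr1d2 0.13. With the shared mouse code as a random block, the sign turned for ECH vs Ct in Per3 0.17, and HF vs Ct in Cry2 0.36. With the library set as a covariate, the sign turned for ECH vs Ct in Cry1 -0.25, Nr1d1 -0.58, Dbp -0.68, Tef -0.67, and HF vs Ct in Nr1d1 -0.67, and HF vs ECH in Nr1d1 -0.090. Within the library sets, the sign turned for ECH vs Ct in Cry1 -0.25, Nr1d1 -0.59, Dbp -0.68, Tef -0.68, and HF vs ECH in Nr1d1 -0.089. With only genes over 1 CPM in 4 libraries, the sign turned for ECH vs Ct in Nr1d1 -0.0048. With only the compared groups fitted, the sign turned for ECH vs Ct in Nr1d1 -0.0041. With the replicate number as a block, the sign turned for ECH vs Ct in Nr1d1 -0.053, Dbp -0.068, and HF vs Ct in Cry2 0.40. Leaving out 1 library turned the sign in ECH vs Ct of Per1 -0.44 to 0.24, Per3 -0.69 to 0.46, Nr1d1 -0.38 to 0.41, Nr1d2 -0.47 to 0.17, Dbp -0.43 to 0.28, Tef -0.079 to 0.65, in HF vs Ct of Per2 -0.48 to 0.60, Cry2 -0.44 to 0.79, Nr1d2 -0.47 to 0.079, Dbp -0.43 to 0.047, in HF vs ECH of Arntl -0.19 to 0.080, Nr1d2 -0.27 to 0.16, Dbp -0.50 to 0.22 (lowest to highest log2 fold change).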
